A study of Mus musculus with 8 samples.

Results

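Transforming growth factor beta (TGF-beta) and activin signaling was followed through 10 genes chosen by name from the 24421 genes in the count tables, namely 5 ligand genes (Tgfb1, Tgfb2, Tgfb3, Inhba and Inhbb), the latency protein gene Ltbp1, the receptor genes Tgfbr1 and Tgfbr2, and the feedback genes Smad7 and Skil. The RNA came from RiboTRAP mice, in which HoxB7-Cre switches on a ribosomal protein tagged with mCherry (Gt(ROSA)26Sor-mCherry-Rpl10a), so that RNA on tagged ribosomes can be pulled from lysed whole kidney with anti-RFP beads. HoxB7-Cre is active in derivatives of the mesonephric duct, among them the collecting duct, and the tag then stays on in those cells. The ischemia-reperfusion injury (IRI) group held 4 mice whose renal pedicles were clamped for 30 min and whose kidneys were taken 9 h after injury. The sham group held 4 mice that had the surgery without clamping, and the time of their harvest was not given in the sources used here. All 8 mice carried both transgenes, and the males used for IRI experiments were 10 to 16 weeks old.

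TGF-beta ligands are secreted as latent complexes, in which the growth factor is held by its own propeptide and tethered to the matrix through latent TGF-beta binding proteins such as Ltbp1. Integrins and proteases free it, the type II receptor Tgfbr2 binds it and phosphorylates the type I receptor Tgfbr1, and Tgfbr1 phosphorylates Smad2 and Smad3, which enter the nucleus with Smad4. Activins are dimers of inhibin beta subunits, encoded by Inhba and Inhbb, and reach the same Smads through their own receptors. Smad7 blocks the type I receptors and Skil (SnoN) represses Smad complexes in the nucleus, and both genes are themselves induced by the pathway. In the kidney TGF-beta is best known for its part in fibrosis after injury.

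Of the 10 genes, Inhba, Inhbb, Tgfb1 and Tgfbr2 rose after IRI, by 30.0-fold, 18.6-fold, 4.06-fold and 2.48-fold. None of the 10 fell at the threshold used, an adjusted p under 0.01 in edgeR's quasi-likelihood test with Benjamini-Hochberg adjustment over the 14606 genes tested. At an unadjusted p under 0.05 the same test had 1 of them lower, Tgfb3, which DESeq2 called lower and limma-voom did not. Tgfb2, Tgfb3, Ltbp1, Tgfbr1, Smad7 and Skil were not called. All 10 genes passed the filter on low counts. The 4 calls, 40% of the genes, stand against 49.7% of all tested genes called in either direction, 25.1% called higher and 24.6% called lower. The median log2 fold change of the 10 genes was 0.63, against -0.01 for all tested genes. Levels are given below as CPM, which is the count of a gene per 1000000 of the counts assigned to genes, after scaling of the libraries with TMM factors, and fold changes are IRI over sham.

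**Figure D1:**
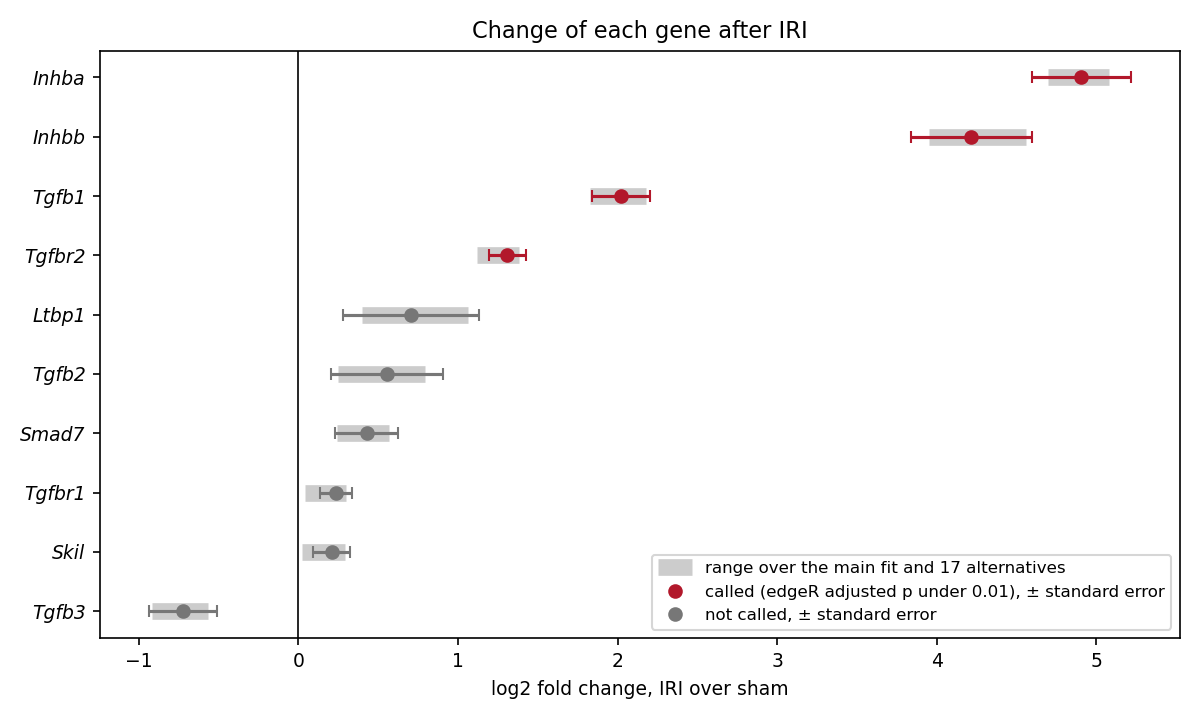
Log2 fold change of each of the 10 genes, IRI over sham, with its standard error from limma-voom (4 libraries per group). Inhba (4.91), Inhbb (4.22), Tgfb1 (2.02) and Tgfbr2 (1.31) were called higher, and the remaining 6 genes, of which Tgfb3 alone lies below 0, were not called.

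Gene totals were 13518005 to 27496808 counts in IRI libraries and 25210299 to 29285812 in sham libraries. Lines that name no gene held 43.3% to 52.3% of the counts in IRI libraries and 33.3% to 37.7% in sham libraries. Markers of principal cells, the water-reabsorbing cells of the collecting duct, summed to 2107 to 3913 CPM in IRI libraries against 12310 to 16080 CPM in sham libraries, with all 10 called lower. The 8 intercalated cell markers, also all called lower, summed to 964.7 to 1525 CPM in IRI libraries against 2758 to 3532 CPM in sham libraries. The RNA also held markers of other cells: the 10 proximal tubule markers summed to 9462 to 20290 CPM in IRI libraries against 7596 to 10450 CPM in sham libraries (6 called higher). Podocyte markers (1 of 5 higher) summed to 235.1 to 460.8 CPM in IRI libraries against 104.8 to 301.1 CPM in sham libraries, and those of thick limb and distal convoluted tubule (0 of 5 called) to 1276 to 2023 CPM in IRI libraries against 1067 to 2008 CPM in sham libraries. Urothelial markers (2 of 5 lower) summed to 69.61 to 214.5 CPM in IRI libraries against 198.8 to 319.2 CPM in sham libraries, and lymphocyte markers (1 of 2 tested lower) to 2.491 to 4.739 CPM in IRI libraries against 4.705 to 8.583 CPM in sham libraries. In bulk pull-downs such as these, fewer cells of a type, less RNA per cell and a changed share of RNA from untagged cells cannot be told apart. No library of RNA from before the pull-down was among those used. The cells in which each of the changes below arose were not tested.

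The promoters of the 4 genes that rose are shown because these are the called genes. The 250 bases before the start site are printed 5′ to 3′ on the strand of the gene, from RefSeq's GRCm38.p6 table, in which 7 of the 10 genes had an entry. Capitals mark CAGAC, the SMAD box, on either strand. TGANTCA, the AP-1 element, was searched in the same way and had no match in these windows.
Inhba, chr13:16011601-16011850, plus strand: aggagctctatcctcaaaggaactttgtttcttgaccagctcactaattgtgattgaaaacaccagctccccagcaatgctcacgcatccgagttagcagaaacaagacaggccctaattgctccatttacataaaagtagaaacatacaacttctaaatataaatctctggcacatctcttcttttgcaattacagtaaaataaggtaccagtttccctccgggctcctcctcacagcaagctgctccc
Inhbb, chr1:119422249-119422498, minus strand: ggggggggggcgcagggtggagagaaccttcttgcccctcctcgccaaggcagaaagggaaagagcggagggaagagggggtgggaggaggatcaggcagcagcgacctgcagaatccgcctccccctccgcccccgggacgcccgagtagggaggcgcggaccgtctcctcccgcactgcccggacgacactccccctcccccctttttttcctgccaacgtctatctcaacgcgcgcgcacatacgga
Tgfb1, chr7:25686752-25687001, plus strand: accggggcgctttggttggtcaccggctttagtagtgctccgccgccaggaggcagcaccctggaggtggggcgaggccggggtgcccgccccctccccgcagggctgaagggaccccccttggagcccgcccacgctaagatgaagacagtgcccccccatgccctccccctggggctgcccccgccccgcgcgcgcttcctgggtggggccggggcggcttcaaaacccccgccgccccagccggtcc
Tgfbr2, chr9:116175364-116175613, minus strand: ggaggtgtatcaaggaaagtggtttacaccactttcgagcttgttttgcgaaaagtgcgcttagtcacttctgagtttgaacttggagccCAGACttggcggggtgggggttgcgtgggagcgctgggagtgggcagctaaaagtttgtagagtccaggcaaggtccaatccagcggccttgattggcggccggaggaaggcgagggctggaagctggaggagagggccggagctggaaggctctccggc

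Only 1 of these 4 windows, that of Tgfbr2, held CAGAC, and none held TGANTCA. Over the 9 windows of the 7 genes with an entry, 5 held CAGAC and 0 held TGANTCA. Among all 32851 windows of this length in the table, CAGAC was found in 42.2% and TGANTCA in 6.75%. A match is a run of letters and was not tested as a binding site. The windows differed in base composition, with 43.2% G and C before Inhba, 68% before Inhbb, 75.2% before Tgfb1 and 58.4% before Tgfbr2.

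Tgfb1 (chr7:25687002-25705077, plus strand, GRCm38) encodes the TGF-beta isoform most studied in kidney injury. It had 41.3, 62.4, 48.4 and 48.0 CPM in IRI replicates 1 to 4, against 13.1, 9.91, 16.3 and 9.87 CPM in sham replicates 1 to 4. Every IRI library lay above every sham library, and IRI replicate 2 was the highest of all. The means were 50.01 ± 8.86 CPM in IRI libraries against 12.3 ± 3.08 CPM in sham libraries (SD, n = 4 each). The log2 fold change was 2.02 ± 0.18 (SE), with an adjusted p of 2.27e-05 in edgeR, and 8.15% of tested genes had a larger change in either direction. Without IRI replicate 2 the log2 fold change was 1.90 (adjusted p = 6.81e-05 in edgeR).

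Markers of 5 kinds of other cells known to express Tgfb1 were summed beside it. IRI replicate 2 had the highest sums for fibroblasts and pericytes (1739 CPM), endothelium (795.4 CPM), macrophages and monocytes (141.2 CPM) and platelets (37.99 CPM), while neutrophil markers were highest in IRI replicate 3 (164.8 CPM, with 154.7 CPM in IRI replicate 2). In IRI replicate 1 the fibroblast and pericyte sum (328.7 CPM) and the endothelial sum (367.5 CPM) lay within the sham ranges. Its macrophage and monocyte (77.55 CPM), platelet (17.39 CPM) and neutrophil (58.12 CPM) sums lay above the sham ranges. Sham replicate 3 had the highest Tgfb1 of the sham libraries. It had the lowest sham sums for fibroblasts and pericytes (248.7 CPM), endothelium (240.0 CPM) and macrophages and monocytes (41.44 CPM). Its neutrophil sum (5.857 CPM) was the highest in sham, and its platelet sum (7.915 CPM) lay inside the range of the other sham libraries. Across all libraries the fibroblast and pericyte list (12 genes, 3 called higher) summed to 328.7 to 1739 CPM in IRI libraries against 248.7 to 395.7 CPM in sham libraries, and the endothelial list (5 of 10 higher) to 367.5 to 795.4 CPM in IRI libraries against 240.0 to 381.4 CPM in sham libraries. The macrophage and monocyte list (4 of 10 higher) summed to 77.55 to 141.2 CPM in IRI libraries against 41.44 to 61.96 CPM in sham libraries. The platelet list (2 of 3 tested higher, 1 of its 6 genes at 0 in all sham libraries) summed to 17.25 to 37.99 CPM in IRI libraries against 7.279 to 8.031 CPM in sham libraries. Neutrophil markers, at 58.12 to 164.8 CPM in IRI libraries against 3.113 to 5.857 CPM in sham libraries, were all 7 called higher. The part of these cells in the level of Tgfb1 was not tested.

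Tgfb2 (chr1:186622792-186705989, minus strand), the isoform with its main developmental roles in heart and skeleton, had 7.91, 18.9, 12.8 and 25.1 CPM after IRI, against 12.9, 10.05, 13.3 and 7.61 CPM in sham. The groups overlapped, and the IRI libraries spread more widely, with the lowest at replicate 1 and the highest at replicate 4. The means were 16.2 ± 7.47 CPM in IRI libraries against 10.98 ± 2.68 CPM in sham libraries (SD, n = 4 each). Its change of 0.56 ± 0.35 (SE) on the log2 scale was not called (adjusted p = 0.169 in edgeR), and 49.7% of tested genes had a larger change.

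Tgfb3 (chr12:86056745-86079041, minus strand), the isoform needed for closure of the palate, was the only member of the 10 with a lower mean after IRI. It had 4.15, 6.93, 6.41 and 5.45 CPM after IRI, against 8.21, 8.17, 12.4 and 8.83 CPM in sham. Every IRI library lay below every sham library, and sham replicate 3 stood above the other sham libraries. The log2 fold change of -0.72 ± 0.21 (SE) had an adjusted p of 0.012 in edgeR, which missed the threshold of 0.01. It passed under 3 of 17 other settings: DESeq2 (adjusted p = 0.00289), scaling by total counts (0.00385) and upper quartile scaling (0.00549). Of the exon bases of Tgfb3, 12.4% are shared with genes on the opposite strand, and the strand setting of the counting was not given. Tgfb1 and Tgfb3 lay on opposite sides of 0, each with no overlap between the groups. Such a lack of overlap held for 5 of the 10 genes (4 higher, 1 lower) and for 58.6% of all tested genes (28.8% higher, 29.8% lower).

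Inhba (chr13:16011851-16031621, plus strand) encodes the beta A subunit that forms activin A. It had 3.21, 3.50, 3.05 and 3.55 CPM after IRI, against 0.149, 0.142, 0.0633 and 0.0739 CPM in sham. Every IRI library stood above every sham library, and the IRI libraries lay close together, at 3.33 ± 0.24 CPM (SD, n = 4). The level was low in both groups: the counts were 82, 45, 49 and 75 after IRI, against 4, 4, 2 and 2 in sham. The log2 fold change was 4.91 ± 0.31 (SE, adjusted p = 2.11e-06 in edgeR), rank 76 of all tested genes from the most raised. From the summed counts, 251 after IRI and 12 in sham, the scaled ratio was 31.5, and its exact 95% interval, which covers counting error only, ran from 17.7 to 61.8.

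Inhbb (chr1:119415465-119422248, minus strand) encodes the beta B subunit of activin B. It had 102, 172, 237 and 114 CPM after IRI, against 7.65, 4.67, 13.7 and 7.46 CPM in sham. No library of one group reached the range of the other, while within IRI the highest library, replicate 3, lay well above replicates 1 and 4. The means were 156 ± 62.0 CPM in IRI libraries against 8.365 ± 3.795 CPM in sham libraries (SD, n = 4 each). Its log2 fold change was 4.22 ± 0.38 (SE, adjusted p = 1.91e-05 in edgeR), rank 127. Inhba and Inhbb rank among the most raised genes, with 0.548% and 0.986% of tested genes showing a larger change in either direction. Inhba, however, stayed the less abundant subunit: per kilobase of exon Inhbb was 47.7 to 117 times Inhba in IRI libraries and 49.6 to 324 times in sham libraries, where it rests on the few counts of Inhba.

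**Figure D2:**
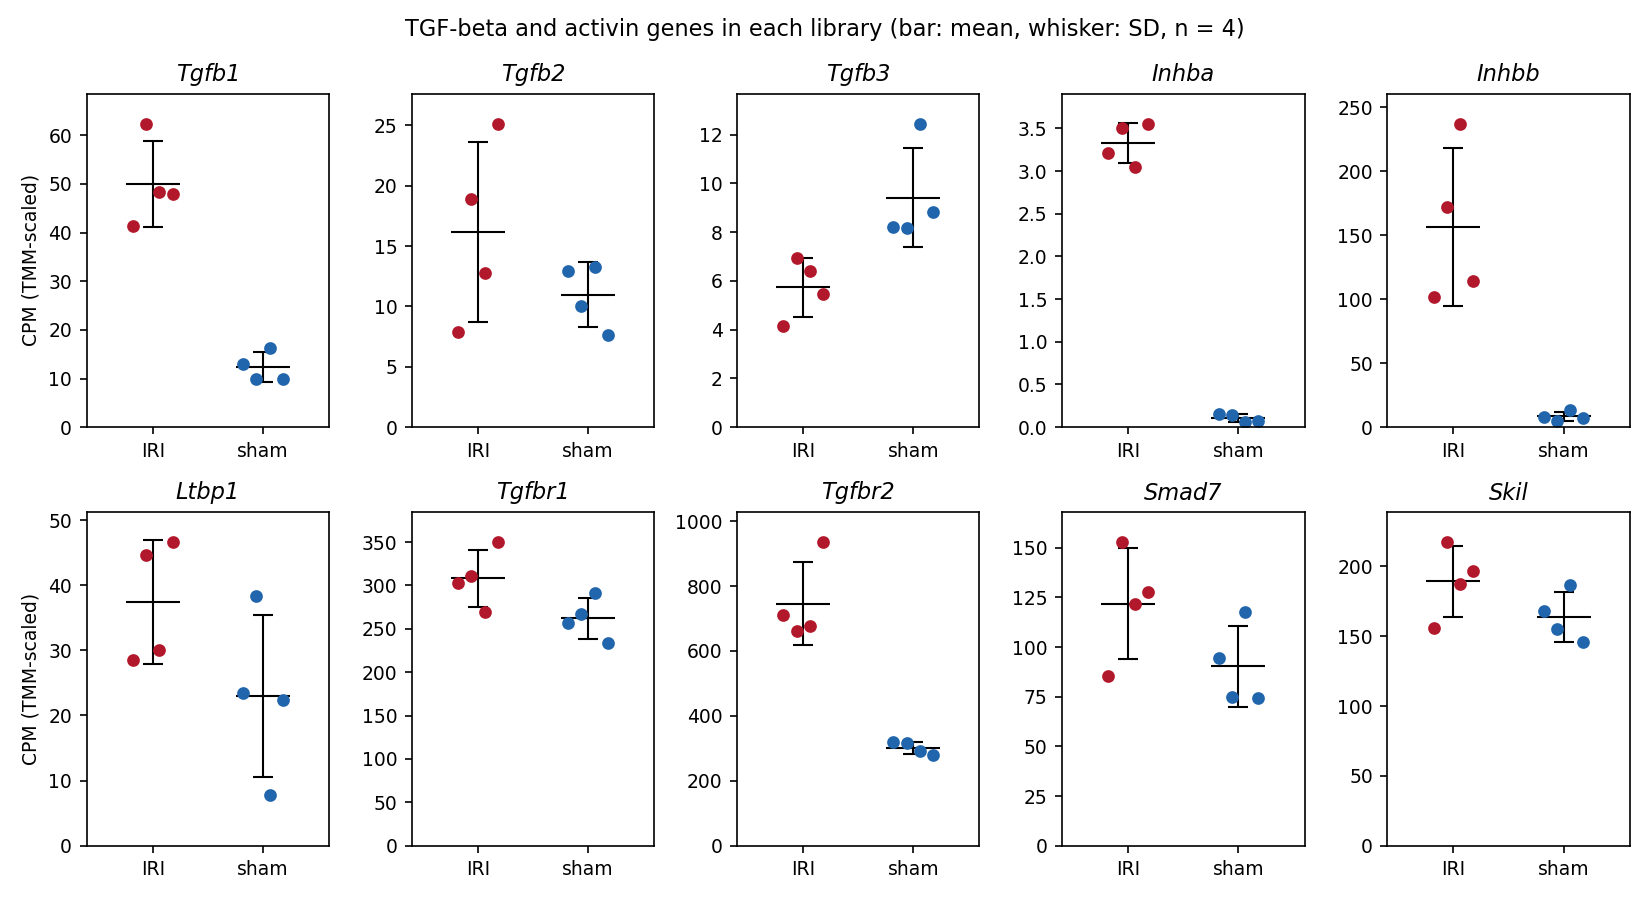
CPM of each gene in each library (vertical axis, linear, from 0 with its own range per gene), with IRI libraries left of sham libraries and group means ± SD (n = 4 each). Inhba, Inhbb, Tgfb1 and Tgfbr2 separate the groups upward, Tgfb3 separates them downward, and the other 5 genes overlap.

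The other ligand and soluble inhibitor genes of the pathway had 3 genes higher and 0 lower among 8 tested of 13 listed (1 lower, Gdf11, at an unadjusted p under 0.05, and 0 lower by DESeq2 and by limma-voom). The median log2 fold change was 0.33. The 3 genes are 37.5% of those tested on this list, against 25.1% of all tested genes called higher and 24.6% called lower. Fst and Fstl3 encode secreted proteins that bind activins, and Gdf15 encodes a distant member of the TGF-beta family. Fst averaged 26.1 CPM in IRI libraries against 2.14 CPM in sham libraries, 12.2-fold higher (adjusted p = 4.64e-06 in edgeR). Gdf15 averaged 184 CPM in IRI libraries against 16.5 CPM in sham libraries, 11.1-fold higher (adjusted p = 9.34e-07 in edgeR). Fstl3 was 2.30-fold higher (11.9 CPM in IRI libraries against 5.14 CPM in sham libraries) with an adjusted p of 0.00959 in edgeR, and 47.3% of its exon bases are shared with Prss57. Its call was lost in 11 of 17 alternative fits.

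Ltbp1 (chr17:75005568-75392512, plus strand) encodes a latent TGF-beta binding protein, which joins the latent complex to the matrix. It had 28.5, 44.7, 30.0 and 46.6 CPM after IRI, against 23.4, 38.3, 7.73 and 22.4 CPM in sham. The groups overlapped through sham replicate 2, and sham replicate 3 was far below the rest. The means of 37.5 ± 9.51 CPM in IRI libraries against 23.0 ± 12.5 CPM in sham libraries (SD, n = 4 each) gave a log2 fold change of 0.71 ± 0.43 (SE) that was not called (adjusted p = 0.148 in edgeR).

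Of the other genes of latency and activation, 14 of 21 tested (66.7%) were called higher and 1 (4.76%) lower, with a median log2 fold change of 1.18. Over all tested genes 25.1% were called higher and 24.6% lower. The largest increase was in Lrrc32, which encodes the GARP protein that anchors latent TGF-beta at the cell surface (12.03-fold, 208 CPM in IRI libraries against 17.3 CPM in sham libraries, adjusted p = 7.13e-06 in edgeR). Mmp9, a protease that can cleave latent complexes, was 10.9-fold higher at low levels (6.84 CPM in IRI libraries against 0.619 CPM in sham libraries). Itgb6, the integrin chain that pairs with Itgav to activate latent TGF-beta in epithelia, was 4.48-fold higher (557 CPM in IRI libraries against 124 CPM in sham libraries). Itgb5, another partner of Itgav, was the gene called lower, by 2.04-fold (114 CPM in IRI libraries against 231 CPM in sham libraries). Mmp9 is also made by neutrophils, whose markers rose as given above, and their part was not tested. Endothelial and platelet markers rose too, and the cells in which Lrrc32, Itgb6 and Itgb5 changed were not tested either.

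Tgfbr2 (chr9:116084293-116175360, minus strand) encodes the type II receptor. It had 711, 663, 676 and 935 CPM after IRI, against 318, 317, 291 and 278 CPM in sham. All IRI libraries lay above all sham libraries, and the sham libraries were tightly grouped at 301 ± 19.8 CPM (SD, n = 4), with 746 ± 127 CPM after IRI. The log2 fold change was 1.31 ± 0.12 (SE, adjusted p = 2.46e-05 in edgeR), and 18.7% of tested genes had a larger change.

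Tgfbr1 (chr4:47353222-47414931, plus strand) encodes the type I receptor, also called ALK5, and had 303, 311, 269 and 350 CPM after IRI, against 257, 267, 291 and 234 CPM in sham. The groups overlapped because sham replicate 3 exceeded IRI replicate 3. Its log2 fold change of 0.23 ± 0.10 (SE) was not called (adjusted p = 0.0753 in edgeR).

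Among other receptors and co-receptors, 1 of 8 tested was called higher and 1 lower (12.5% each), with a median log2 fold change of -0.18. Both shares lay below those over all tested genes, 25.1% higher and 24.6% lower. With scaling by total counts or by upper quartile factors, 5 were called lower. Eng (endoglin, a co-receptor common on endothelium) averaged 87.2 CPM in IRI libraries against 42.3 CPM in sham libraries, 2.06-fold higher (adjusted p = 0.00159 in edgeR). Acvr2b, an activin type II receptor, averaged 6.30 CPM in IRI libraries against 12.9 CPM in sham libraries, 2.04-fold lower (adjusted p = 0.00156 in edgeR). The part of endothelial cells, of whose 10 markers 5 were called higher, in the change of Eng was not tested.

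Of the signal transduction genes, 6 of 12 tested (50%) were called higher and 4 (33.3%) lower, with a median log2 fold change of 0.24, and with scaling by total counts 2 were higher. The shares over all tested genes were 25.1% higher and 24.6% lower. Smad3, a mediator of transcription by TGF-beta, averaged 427 CPM in IRI libraries against 102 CPM in sham libraries, a 4.20-fold increase (adjusted p = 9.37e-07 in edgeR). Dab2, an adaptor of the receptors, was 1.79-fold higher and the kinase gene Map3k7 1.42-fold higher, and with scaling by total counts the adjusted p of Map3k7 was 0.0111. Usp11, Tab1 and Zfyve9, the last of them encoding the SARA anchor, were 1.78-fold, 1.48-fold and 1.38-fold lower. Of the exon bases of Zfyve9, 10.9% are shared with another gene.

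Smad7 (chr18:75367529-75395935, plus strand) had 85.4, 153, 122 and 128 CPM after IRI, against 94.4, 75.1, 118 and 74.5 CPM in sham. The groups overlapped, with IRI replicate 1 below 2 of the 4 sham libraries. Its log2 fold change of 0.43 ± 0.20 (SE) was not called (adjusted p = 0.0835 in edgeR).

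Skil (chr3:31095058-31122577, plus strand) had 156, 217, 187 and 197 CPM after IRI, against 168, 155, 187 and 146 CPM in sham. The groups overlapped and the change of 0.21 ± 0.12 (SE) on the log2 scale was not called (adjusted p = 0.147 in edgeR). Both feedback genes were lowest in IRI replicate 1 and highest in IRI replicate 2 within the IRI group.

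Among the other feedback and inhibitor genes, 7 of 15 (46.7%) were called higher and 2 (13.3%) lower, with a median log2 fold change of 0.30. All tested genes had 25.1% called higher and 24.6% called lower. Tgif1, a nuclear repressor of Smads, averaged 131 CPM in IRI libraries against 34.8 CPM in sham libraries (3.75-fold higher). Bambi, a decoy receptor, averaged 8.28 CPM in IRI libraries against 2.95 CPM in sham libraries (2.80-fold higher). Smurf1, a ubiquitin ligase, averaged 118 CPM in IRI libraries against 47.4 CPM in sham libraries (2.49-fold higher). Smad6, an inhibitory Smad best known from BMP signaling, was 2.20-fold lower (20.1 CPM in IRI libraries against 44.0 CPM in sham libraries), and Nedd4l, a ubiquitin ligase, was 1.57-fold lower (188 CPM in IRI libraries against 296 CPM in sham libraries).

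Genes known as targets of Smad2 and Smad3 were examined, though many of them also respond to other signals. The list was drawn up with earlier results of these data known. It leaves out Smad7 and Skil, which the pathway also induces and which were not called. Of the 29 listed genes, 20 (69%) were called higher and 2 (6.9%) lower, with a median log2 fold change of 1.94. Over all tested genes the shares were 25.1% higher and 24.6% lower. Il11, a cytokine, averaged 29.3 CPM in IRI libraries against 0.407 CPM in sham libraries (71.3-fold higher). Cyr61, a matricellular protein, averaged 522 CPM in IRI libraries against 17.8 CPM in sham libraries (29.3-fold higher). Timp1, an inhibitor of matrix proteases, averaged 20.9 CPM in IRI libraries against 1.53 CPM in sham libraries (13.6-fold higher). The 2 called lower were Smad6 and the cell cycle inhibitor gene Cdkn2b, which was 1.90-fold lower (12.4 CPM in IRI libraries against 23.7 CPM in sham libraries). On the list, 5 genes also mark fibroblasts and pericytes, and without them 18 of 24 were called higher and 2 lower. The list shares 5 genes with the other pathway lists.

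**Figure D3:**
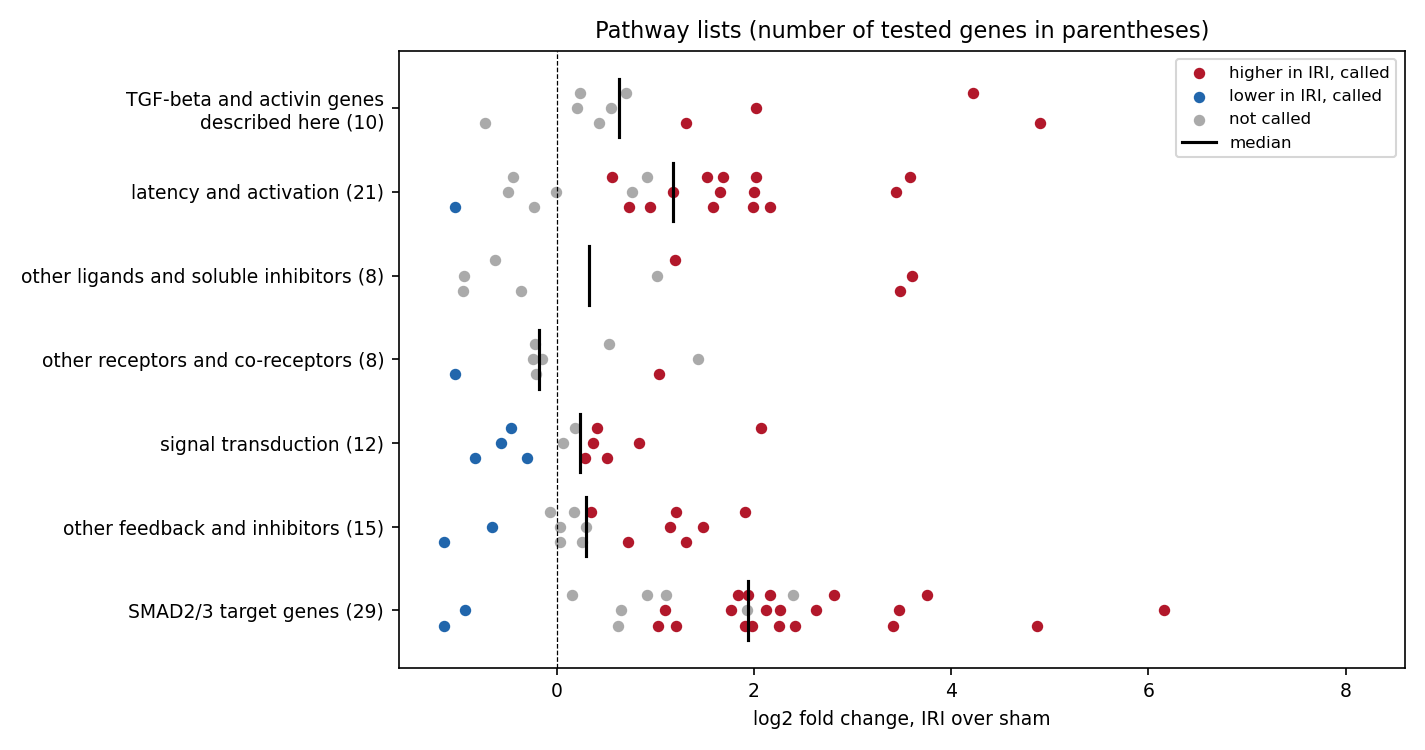
Log2 fold change, IRI over sham, of every tested gene on each list, with red points called higher, blue points called lower and grey points not called, and the vertical bar at the list's median. The SMAD2/3 targets (20 higher and 2 lower of 29) and the latency and activation genes (14 higher and 1 lower of 21) lie mostly to the right of 0, and the receptor list is centred near 0. Of all tested genes, 25.1% were called higher and 24.6% lower.

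Ratios within a library show whether a pair of genes of the same role changed by different amounts. The log2 ratio of Tgfb1 to Tgfb3, on CPM plus 0.5, was 3.02 ± 0.15 after IRI and 0.36 ± 0.21 in sham (SD, n = 4 each), a difference of 2.67 ± 0.13 (SE) by which Tgfb1 gained on Tgfb3. The ratio of Tgfb1 to Tgfb2 was 1.70 ± 0.58 after IRI and 0.16 ± 0.19 in sham, with a difference of 1.54 ± 0.31 (SE). The ratio of Tgfbr1 to Tgfbr2 was -1.27 ± 0.14 after IRI and -0.20 ± 0.14 in sham, so that it fell by 1.06 on the log2 scale. In each of these 3 ratios the groups did not overlap, and the two-sided exact permutation p was 0.0286, the smallest that 4 against 4 can give, or 0.0357 adjusted over the 5 ratios. For Tgfb1 to Tgfb3 this p was fixed in advance, because the genes each separated the groups, in opposite directions. For Tgfbr1 to Tgfbr2 it was fixed by the ranges of the genes. Tgfbr2 was at least 662.5 CPM in IRI libraries and at most 318.2 CPM in sham libraries. Tgfbr1 ran only from 233.7 to 349.7 CPM over both groups. Neither p therefore adds to the separations of the single genes. The ratio of Skil to Smad7 overlapped, at 0.65 ± 0.15 after IRI and 0.87 ± 0.17 in sham (exact permutation p = 0.114, adjusted 0.114). For Inhba to Inhbb no direction can be given: the difference was -2.11 with a pseudocount of 1 CPM, -1.50 with 0.5 CPM, -0.16 with 0.1 CPM and 0.39 from raw counts plus 1. Sham libraries held 2 to 4 counts of Inhba each.

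**Figure D4:**
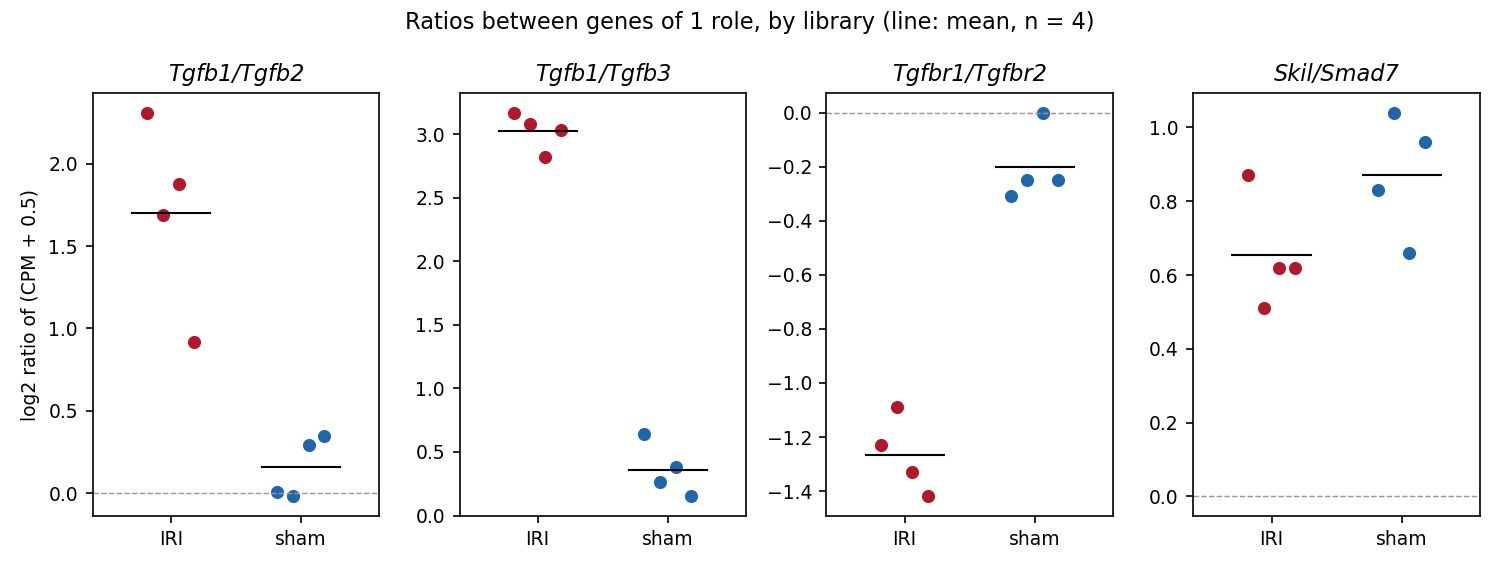
Log2 ratios of CPM plus 0.5 per library for 4 pairs of genes, IRI libraries left of sham libraries, with a line at each group mean (n = 4 each). The ratios Tgfb1/Tgfb3, Tgfb1/Tgfb2 and Tgfbr1/Tgfbr2 separate the groups, while Skil/Smad7 overlaps.

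Levels of different genes are comparable only per length, here as CPM per kilobase (kb) of merged exons in GRCm38. After IRI the order, from the top, was Tgfbr2 (91.1 ± 15.6), Tgfbr1 (47.2 ± 5.06), Inhbb (36.8 ± 14.6), Smad7 (27.0 ± 6.15), Skil (19.5 ± 2.62), Tgfb1 (9.92 ± 1.76), Ltbp1 (3.50 ± 0.889), Tgfb2 (2.79 ± 1.29), Tgfb3 (1.70 ± 0.361) and Inhba (0.521 ± 0.0375 CPM per kb, SD, n = 4). In sham it was Tgfbr1 (40.1 ± 3.64), Tgfbr2 (36.8 ± 2.42), Smad7 (20 ± 4.51), Skil (16.9 ± 1.83), Tgfb3 (2.78 ± 0.603), Tgfb1 (2.44 ± 0.612), Ltbp1 (2.15 ± 1.17), Inhbb (1.97 ± 0.892), Tgfb2 (1.90 ± 0.462) and Inhba (0.0167 ± 0.00699 CPM per kb). In sham the ranges of mean ± SD overlapped between the neighbours Tgfbr1 and Tgfbr2, between Smad7 and Skil, and along the run of 5 genes from Tgfb3 to Tgfb2. After IRI they overlapped from each gene to the next along the run from Tgfbr1 to Skil and along the run from Ltbp1 to Tgfb3. These orders rest on merged exons. With the length of the longest transcript the order after IRI was the same, but in sham Skil (24.4 ± 2.64) lay above Smad7 (21.1 ± 4.77), Tgfb1 (4.78 ± 1.20) and Ltbp1 (3.44 ± 1.87) lay above Tgfb3 (2.78 ± 0.603), and Tgfb2 (2.15 ± 0.523) lay above Inhbb (1.97 ± 0.892 CPM per kb). With that length the ranges of Tgfbr1 (45.5 ± 4.14) and Tgfbr2 (37.2 ± 2.45 CPM per kb) in sham did not overlap.

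**Figure D5:**
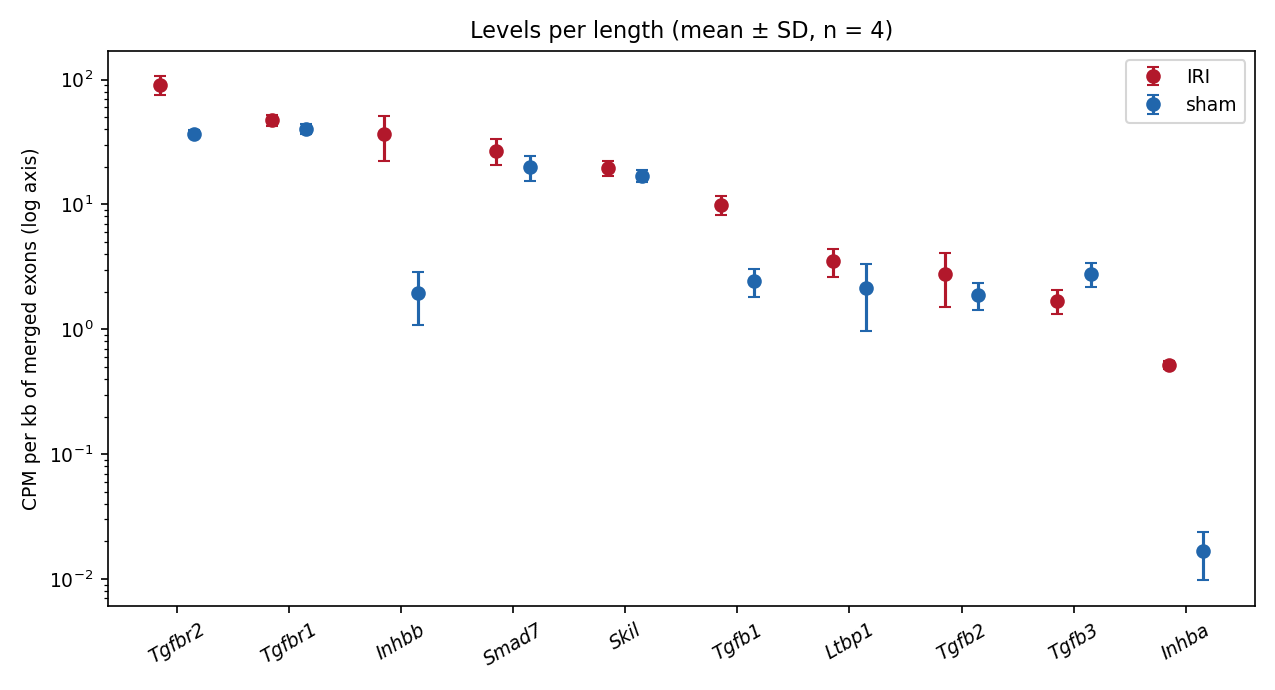
Mean CPM per kb of merged exons for each gene, IRI and sham, on a log axis with SD (n = 4 each). The receptors and feedback genes lie highest in sham (16.9 to 40.1), Inhbb joins them after IRI (36.8), and Inhba is lowest in both groups.

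Per kb, Tgfb1 made up 75.9%, 69.9%, 70.1% and 61.5% of the sum of the 3 TGF-beta ligand genes in IRI replicates 1 to 4, against 35.7%, 32.1%, 35.2% and 33.3% in sham replicates 1 to 4. Tgfb3 made up 10.4% to 13.8% after IRI and 33.5% to 44.4% in sham. With the longest transcript in place of merged exons, the share of Tgfb1 was 74.1% to 85.3% after IRI and 46.8% to 50.6% in sham, so the groups still did not overlap, while the sham level depended on the length used. Tgfbr2 per kb was 1.70 to 2.13 times Tgfbr1 in IRI libraries and 0.797 to 0.989 times in sham libraries.

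Within the groups, libraries differed in a shared direction for several of the genes. IRI replicate 1 was the lowest IRI library for 7 of the 10 genes and IRI replicate 4 the highest for 5. Sham replicate 3 was the highest sham library for 7, and sham replicate 4 the lowest for 6. Leaving out any 1 library left each of the 4 calls past the threshold and called none of the other 6 genes.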

How the data were processed

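The authors prepared the libraries with a kit that depletes ribosomal RNA, aligned reads to mm10 with TopHat2 2.1.1 and counted them per gene with HTSeq. The authors deposited the raw counts of each mouse without normalizing them. For the counting, the annotation release, the mode and the strandedness were not stated in the sources read. HTSeq's summary lines, which name no gene, held 33.3% to 52.3% of the counts per library and were left out of library sizes and tests.

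Of 24421 genes, 19205 had a count and 14606 passed filterByExpr (minimum count 10, minimum total 15) in edgeR 4.0.16 (R 4.3.3). With TMM factors, the quasi-likelihood test set 4 IRI libraries against 4 sham libraries without a block, and genes were called at a Benjamini-Hochberg adjusted p under 0.01, the threshold of the study. The biological coefficient of variation was 0.206. Voom in limma 3.58.1 gave the standard errors. The fits were tested on simulated data. Log2 ratios used CPM plus 0.5 and an exact permutation test. Positions, exon lengths and overlaps came from a GRCm38 annotation.

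The 10 genes, 6 pathway lists and 12 lists of cell type markers were chosen with earlier results of these data known. All 10 genes are described. From each pathway list the text names up to 3 genes per direction with the largest change among those called with no overlap between groups and a mean of at least 1 CPM in one group. Alternatives were other scalings, other filters (no filter, or at least 1 CPM in 4 libraries), DESeq2 1.42.0, limma-voom, a replicate block, the number series in the submitted names as a covariate, a threshold of 0.05, other pseudocounts (0.1 and 1 CPM) or raw counts plus 1 for ratios, another length, and each library left out in turn. Depth was 13518005 to 29285812 counts per library in genes, and Inhba in sham rests on 2 to 4 counts per library.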

Additional observations from a re-analysis of the deposited data

Results flagged for a closer look

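Within the sham group, Tgfb3 at 12.44 CPM in sham replicate 3 stood far from the other 3 sham libraries, with a gap to the nearest of them that was 0.846 of the range of the group, above Dixon's 95% critical value for 4 samples. It was the 1 value singled out among 54 groups of 4 examined, where chance would give about 2.7 at 1 in 20. Sham replicate 3 was also the highest sham library for Tgfb1, Tgfb2, Inhbb, Tgfbr1, Smad7 and Skil. Without it the log2 fold change of Tgfb3 was -0.57 (adjusted p = 0.0303 in edgeR), and it was not called with or without that library.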

How the results depend on the processing

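Inhba, Inhbb, Tgfb1 and Tgfbr2 were called higher in all 17 alternative fits, with log2 fold changes of 4.70 to 5.08, 3.95 to 4.56, 1.83 to 2.18 and 1.12 to 1.38. Tgfb2, Ltbp1, Tgfbr1, Smad7 and Skil were called in none. Tgfb3 was called lower with scaling by total counts (-0.92), upper quartile factors (-0.84) and DESeq2 (-0.72), and the cause was not tested. Scaling by total counts moved the median log2 fold change of all tested genes to -0.20 and upper quartile factors moved it to -0.125, with 36.2% and 41.3% of calls higher (2783 higher and 4912 lower, and 3092 and 4393), against 50.5% with TMM (3667 and 3595). With DESeq2 that median was 0.004, and the log2 fold change of Tgfb3 was the -0.72 of the main fit. Under scaling by total counts and by upper quartile factors alike, 5 other receptor genes were called lower. With total counts 2 signal transduction genes were called higher. At a threshold of 0.05, 2 other receptor genes were higher and 2 lower. Leaving out IRI replicate 2 gave 1 other ligand gene called lower (0 to 1 over the libraries left out). Leaving out each library gave 3179 to 3550 genes higher and 3169 to 3479 lower, and log2 fold changes for Tgfb2 of 0.25 to 0.79, Tgfb3 of -0.82 to -0.57, Ltbp1 of 0.40 to 1.06, Tgfbr1 of 0.16 to 0.29, Smad7 of 0.30 to 0.57 and Skil of 0.14 to 0.29. The difference in the Inhba to Inhbb ratio was -0.16 with a pseudocount of 0.1 CPM and 0.39 with raw counts plus 1 (neither past the threshold by an exact permutation test), and -2.11 with 1 CPM. With the longest transcript as length, CPM per kb was 53.6 after IRI and 45.5 in sham for Tgfbr1, 28.2 and 24.4 for Skil, 19.4 and 4.78 for Tgfb1, and 5.61 and 3.44 for Ltbp1. The labels do not say that replicate numbers pair the mice (deviations of same-numbered libraries correlated at -0.527 to -0.0668), and with a replicate block 2870 genes were higher and 2712 lower, while the differences in ratio (1.54 for Tgfb1 to Tgfb2, 2.67 for Tgfb1 to Tgfb3, -1.06 for Tgfbr1 to Tgfbr2 and -1.50 for Inhba to Inhbb) had an adjusted p of 0.156 by an exact sign-flip test, whose smallest unadjusted p is 0.125. The block changed no call among the 10 genes. The number series in the submitted names was not balanced between the groups, and its meaning was not given. It was low for IRI replicates 1 to 3 and sham replicate 1, and high for IRI replicate 4 and sham replicates 2 to 4. With it as a covariate 3133 genes were higher and 3033 lower, and no call among the 10 genes changed. Depth limits the precision of Inhba in sham, with 12 counts in all, and 4 mice per group limit all of the tests.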
